A study of Mus musculus with 4 samples.

Results

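The cytosolic ribosome of the mouse is built from one set of proteins, and the 86 genes described here carry the symbols of that set. They were taken from the 32285 genes of the count tables by name: Rpl or Rps followed by a digit, together with Rpsa, Rplp0, Rplp1 and Rplp2. Pseudogene symbols ending in -ps and the ribosomal S6 kinases were left out. Of the 86 symbols, 52 named large-subunit (Rpl) and 34 small-subunit (Rps) genes. The rule also took in 9 paralogs or unrelated symbols, namely Rpl3l, Rpl7l1, Rpl10l, Rpl22l1, Rpl36al, Rpl39l, Rps27l, Rps27rt and Rps19bp1, which left 77 ribosomal proteins proper. The rule uses no measured value.

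The nuclei came from the frozen right hemicortex of C57BL/6J wild-type mice of both sexes. From postnatal day 22, mice received saline or risperidone, a second-generation antipsychotic that blocks dopamine and serotonin receptors, at 4 mg/kg once a day by intraperitoneal injection for 21 days. After a washout without drug, the tissue was collected at postnatal day 90, and hemicortices of 5 male and 5 female mice were combined into 1 pool per condition. Nuclei of each pool were sorted by their DAPI signal and run on 2 lanes, which are technical repeats of that pool. With 1 pool per condition there was no test between conditions. All intervals below are exact 95% intervals and cover counting error only, so the spread among mice is not known, and treatment cannot be told apart from any other difference between the pools. Risperidone had been dissolved in DMSO before dilution in saline, whereas the control is labelled saline.

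Ribosomal protein genes are short, are transcribed in every cell, and give mRNAs that are among the most abundant of the cytoplasm. Their transcripts usually begin with a run of pyrimidines at the 5' end, a feature through which mTOR signalling and Larp1 set how strongly they are translated. In isolated nuclei, what is counted is mostly RNA that is still being made, processed or awaiting export, so a level here is a nuclear level and not the cytoplasmic stock. The proteins themselves are made in the cytoplasm, enter the nucleolus and are assembled there with ribosomal RNA. Several have further roles, as with Rpl5 and Rpl11, which bind Mdm2 and thereby stabilise p53.

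Listed nuclei numbered 29536 and 29986 for saline and 25983 and 23450 for risperidone, with 119736937 to 203675013 unique molecular identifiers (UMIs) per lane. The pools differed in depth, since the median nucleus held 3297 and 4049 UMIs in saline and 5648 and 7765.5 UMIs in risperidone. They also differed at the bottom of the range, where the poorest listed nucleus held 1364 or 1630 UMIs in saline and 500 UMIs in both risperidone lanes. Between 160 and 221 barcodes were shared by any pair of lanes. Nuclei were clustered without the ribosomal protein genes, and 29 of 35 clusters were called by the class whose markers they carried, the other 6 staying unclassed. A striatal-type class was present beside the cortical ones. Neuronal RNA was found in other nuclei: Camk2a, of glutamatergic neurons, stood at 919 and 925 UMIs per 1000000 UMIs (CPM) in saline neurons, at 314 and 333 CPM in saline glia and at 589 and 593 CPM in saline vascular nuclei. In risperidone, the corresponding Camk2a levels were 838 and 842 CPM, 200 and 248 CPM, and 362 and 408 CPM. The other marker in common use, Slc17a7, overlapped between the pools, at 40.4 and 42.2 CPM in saline and 37.0 and 46.3 CPM in risperidone glia, and at 64.6 and 59.9 CPM against 76.3 and 57.8 CPM in vascular nuclei. Of the 9 glutamatergic markers, none at 0, 5 were lower in both risperidone lanes in glia and 2 in vascular nuclei. Their sum was 1862 and 1834 CPM in saline against 1564 and 1567 CPM in glia, and 1609 and 1542 CPM against 1491 and 1433 CPM in vascular nuclei. Astrocytes held 2323 and 2326 CPM against 2327 and 2321 CPM, above the 2064 and 2038 CPM against 2035 and 2044 CPM of glutamatergic neurons. The sum is thus no measure of neuronal RNA in astrocytes. Taken singly, 7 of the 9 markers were lower in both risperidone lanes in astrocytes. There Camk2a stood at 224 and 207 CPM in saline against 112 and 92.7 CPM, and Slc17a7 at 34.9 and 33.5 CPM against 27.5 and 29.2 CPM. Oligodendrocytes, with 228 saline and 1110 risperidone nuclei, held 1295 and 967 CPM against 736 and 829 CPM, so the glial sum also depends on the mix of classes. The part of such RNA in the differences below was not tested.

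Ribosomal protein genes took a small share of nuclear RNA, and that share differed by cell class in every lane. In neurons, the 86 genes together held 348 and 339 CPM in saline and 462 and 449 CPM in risperidone. In glia, which are the astrocytes, oligodendrocytes, oligodendrocyte precursors (OPCs) and microglia, the sum was 436 and 430 CPM in saline and 812 and 755 CPM in risperidone. Vascular nuclei, which are endothelial, mural and fibroblast, gave the highest sum of the 3 groups, with 709 and 653 CPM in saline and 1651 and 1707 CPM in risperidone. In each of the 4 lanes the order was neurons, then glia, then vascular nuclei. The intervals of these sums did not overlap between groups within a lane.

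Within neurons, glutamatergic neurons had the lowest sum in each of the 4 lanes, at 341 and 330 CPM in saline and 449 and 438 CPM in risperidone. PV-INs held 1.15 times and Sst-INs 1.17 times the glutamatergic level as a mean over the 4 lanes. Vip-INs stood at 1.19 times, Lamp5-INs at 1.26 times and striatal-type neurons at 1.14 times that level. The interneuron classes were close to each other, and in saline their sums lay between 367 and 403 CPM. Among glia and vascular nuclei the range was far wider. Endothelial nuclei held 946 and 881 CPM in saline and 2024 and 2205 CPM in risperidone, or 3.60 times the glutamatergic level. Fibroblast nuclei came next at 2.87 times, with 654 and 658 CPM in saline and 1931 and 1801 CPM in risperidone. Mural nuclei (1.59 times), astrocytes (1.51 times), oligodendrocytes (1.49 times) and OPCs (1.30 times) were closer to neurons. These multiples are means over the 4 lanes, and the pools differed. Oligodendrocytes stood at 1.18 times in saline and 1.89 times in risperidone, beside 1.25 and 1.35 times in OPCs. Astrocytes stood at 1.31 and 1.74 times and fibroblast nuclei at 1.96 and 4.21 times. Microglia had the highest sums, 2903 and 4308 CPM in risperidone, but rested on 79 nuclei in each risperidone lane and on 8 and 6 nuclei in the saline lanes, whose intervals ran from 696 to 1977 CPM and from 1532 to 3382 CPM. The large subunit made up 60.2% to 65.0% of the ribosomal protein UMIs in every lane of the 3 groups.

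**Figure D1:**
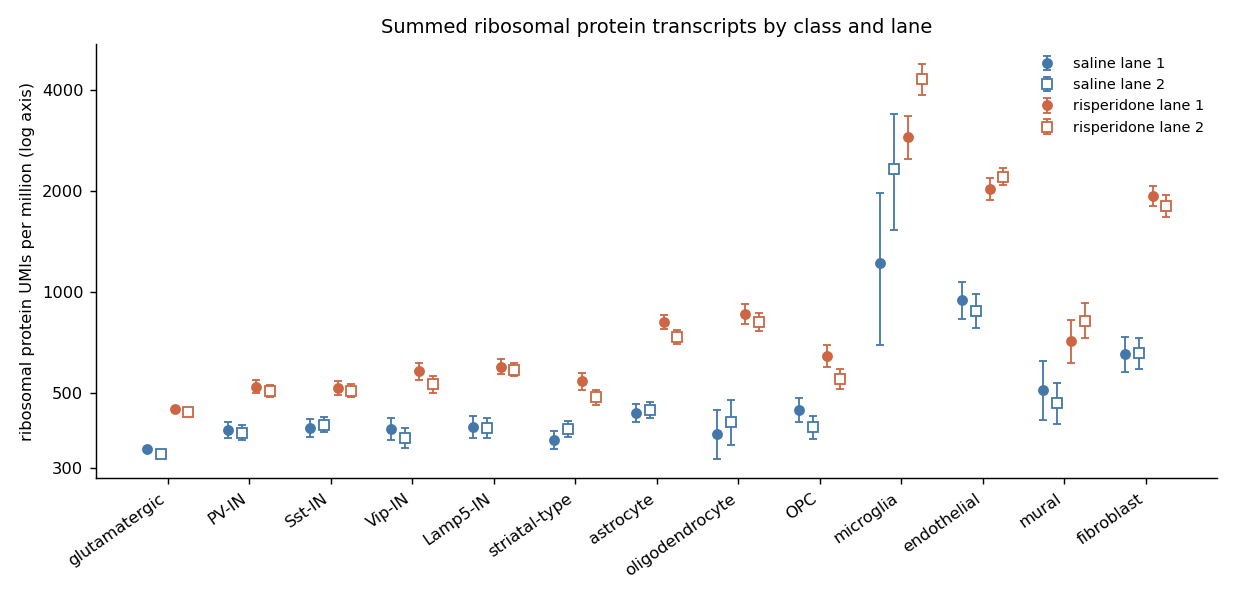
CPM that fell on the 86 ribosomal protein genes (log axis) in each cell class and lane, with exact 95% Poisson intervals; colours separate the saline and risperidone pools and marker shapes the 2 lanes. Glutamatergic neurons lie at 330 to 449 CPM and endothelial nuclei at 881 to 2205 CPM, and in the plotted classes both risperidone lanes lie above both saline lanes.

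In the sums over nuclei of every depth, the excess outside neurons was larger in the risperidone pool. Per lane, the log2 ratio of glia to neurons was 0.33 and 0.34 in saline and 0.81 and 0.75 in risperidone, which is 1.26-fold and 1.72-fold. For vascular nuclei against neurons it was 1.03 and 0.95 in saline and 1.84 and 1.93 in risperidone, or 1.98-fold and 3.68-fold. Over the 4 lanes the mean log2 ratio was 0.56 for glia and 1.43 for vascular nuclei. The median over the 10180 and 6049 genes with at least 100 UMIs in the group stood 0.31 higher in glia than in neurons and 0.39 higher in vascular nuclei on the same log2 scale, a minimum that favours genes high in that group. Depth moved with this comparison. In nuclei of 3000 to 5000 UMIs, a range chosen after the data had been seen, the mean log2 ratio of glia to neurons was 0.18, and that of vascular nuclei was 0.82. Per lane, glia gave 0.06 and 0.13 in saline and 0.41 and 0.12 in risperidone, and vascular nuclei 0.38 and 0.83 against 0.41 and 1.66, so the pools overlapped at that depth.

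Gene by gene, 49 of the 86 genes had at least 100 UMIs in glia and 11 had as many in vascular nuclei, and only those are compared singly. A gene was counted as higher when its log2 ratio to neurons averaged at least 0.5 and was positive in all 4 lanes. By that rule 27 of the 49 were higher in glia and 0 were lower, whereas 37.3% of the 10180 genes tested were higher and 14.6% were lower. In vascular nuclei 11 of 11 were higher and 0 lower, against 42.2% higher and 12.8% lower among 6049 genes. Since a gene rare in neurons passes the UMI minimum only where it is high, these counts lend no support beyond the sums over all 86 genes.

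Rpl13, a protein of the large subunit, had the highest ratio in both groups. Its level relative to neurons was 2.23-fold in glia, with per-lane log2 ratios of 0.74, 0.66, 1.61 and 1.63, and 5.02-fold in vascular nuclei. Rplp1, an acidic stalk protein that helps recruit elongation factors to the ribosome, stood at 2.00-fold in glia and 4.33-fold in vascular nuclei. Rpl37 (log2 1.09), Rps7 (0.94) and Rps9 (0.92) were also among the highest 5 in glia. In vascular nuclei, Rpl19 (2.02) and Rps24 (1.68) were also high. Rps24 is a small-subunit protein that is mutated in some cases of Diamond-Blackfan anaemia. Of the genes with a positive ratio in all 4 lanes, the lowest in glia were Rpl22 (log2 0.22), Rpl4 (0.24), Rps13 (0.32), Rps15a (0.34) and Rpl17 (0.36). In vascular nuclei the lowest were Rpl27a (0.77), Rpl6 (1.11), Rpl5 (1.24), Rps14 (1.24) and Rpl41 (1.41). The 5 lowest of all 49 had lanes on both sides of 0 and were chosen after their values were seen, namely Rpl15 (mean log2 -0.38), Rpl27a (-0.15), Rpl30 (0.03), Rps20 (0.15) and Rps2 (0.17). Rpl15 was lower in glia than in neurons in both saline lanes (log2 -0.54 and -1.11) and near equal in both risperidone lanes (0.12 and -0.00).

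**Figure D2:**
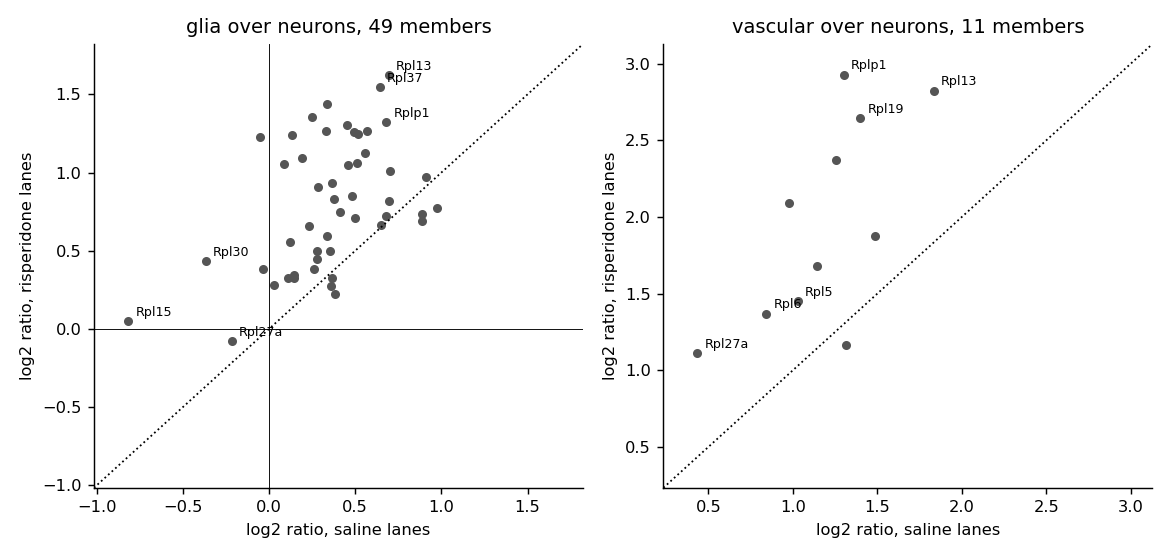
Log2 ratio of each tested ribosomal protein gene to its level in neurons, with the saline pool on the horizontal and the risperidone pool on the vertical axis, for glia (49 genes) and vascular nuclei (11 genes); the line marks equal ratios. Rpl13 lies at 0.70 and 1.62 in glia and at 1.83 and 2.82 in vascular nuclei, above the line in both.

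Levels between genes are compared per kilobase of annotated exon. Each molecule is counted once by its UMI, so that division places genes with short exons higher than counts of molecules alone would. On that scale Rps15 (11.8 CPM per kb), Rpl36 (11.5) and Rplp1 (9.11) led in neurons, followed by Rpl38 (8.82) and Rpl41 (6.79). In glia the leading genes were Rplp1 (19.2), Rpl36 (17.3), Rps15 (16.4) and Rpl38 (11.8). Among the 11 genes tested in vascular nuclei, Rplp1 reached 49.1, Rpl19 24.8, Rpl41 19.0 and Rpl13 15.4 CPM per kb. Rps15, Rpl36, Rplp1 and Rpl38 were among the leading 5 in both neurons and glia. No single gene dominated the sums, and Rpl6, the gene with most UMIs in neurons, held 3.84% of the ribosomal protein UMIs there. The 10 genes with most UMIs held 27.7%, 25.4% and 24.5% in the 3 groups.

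Between the pools, the share of nuclear RNA on ribosomal protein genes was higher in risperidone in all 3 groups. Scaled by edgeR's TMM factors, the log2 ratio of risperidone to saline was 0.30 in neurons (interval 0.29 to 0.32), which is 1.23-fold. It was 0.75 in glia (0.69 to 0.81; 1.68-fold) and 1.21 in vascular nuclei (1.13 to 1.30; 2.32-fold). Without the TMM factors the ratios were 0.41, 0.85 and 1.31, since that scaling moves the median of all genes to 0.10, 0.11 and 0.11. Among neurons, the ratio was 0.30 in glutamatergic neurons, 0.33 (0.26 to 0.40) in PV-INs, 0.31 in Sst-INs, 0.37 in striatal-type neurons, 0.52 in Vip-INs and 0.53 in Lamp5-INs. In glia it was 0.45 in OPCs, 0.75 (0.68 to 0.83) in astrocytes, 0.95 (0.78 to 1.13) in oligodendrocytes and 1.02 (0.57 to 1.51) in microglia. The oligodendrocyte value covers 1 cluster alone, and adding an unclassed cluster of 2412 nuclei with the same markers, scored 4.58 for that class, gave 0.55. Another unclassed cluster, of 10131 nuclei, also had oligodendrocyte as its best class, at a score of 2.37, and was not added. In vascular nuclei the ratio was 0.66 (0.45 to 0.88) in mural, 1.19 (1.06 to 1.33) in endothelial and 1.43 (1.30 to 1.57) in fibroblast nuclei. In each of the 35 clusters, unnamed ones included, both risperidone lanes lay above both saline lanes, with log2 ratios of plain CPM from 0.23 to 1.86. The 15 glutamatergic clusters ranged from 0.23 to 0.96.

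Other values moved with this difference. Transcripts of the mitochondrial genome, which come from cytoplasm that stays on nuclei, stood at 354 and 329 CPM in saline neurons and at 156 and 135 CPM in risperidone neurons. Malat1, a long RNA retained in the nucleus, stood at 21026 and 21095 CPM in saline neurons and at 33982 and 32604 CPM in risperidone neurons. In glia the mitochondrial sum was 576 and 559 CPM in saline and 604 and 473 CPM in risperidone, and in vascular nuclei 2663 and 2594 CPM against 1904 and 2163 CPM. Malat1 stood at 27094 and 27619 CPM in saline and 49829 and 46927 CPM in risperidone glia, and at 27033 and 27170 CPM against 47710 and 45155 CPM in vascular nuclei. Markers of several glial types were lower in risperidone neurons too. The 7 oligodendrocyte markers summed to 234 and 212 CPM in saline and 145 and 135 CPM in risperidone neurons, and 7 of 7 were lower in both lanes. The OPC sum was 330 and 336 CPM against 269 and 268 CPM and the astrocyte sum 572 and 572 CPM against 526 and 528 CPM, each with 6 of 7 markers lower in both lanes. The striatal-type class is itself part of the neurons and held 860 and 808 saline and 410 and 432 risperidone nuclei. Its marker sum in neurons was 2543 and 2471 CPM against 1783 and 1814 CPM, with 4 of 7 lower in both lanes. In glutamatergic neurons alone that sum was 2361 and 2301 CPM against 1707 and 1723 CPM. The mural sum in neurons overlapped, at 5.17 and 5.55 CPM against 4.96 and 5.26 CPM. None of these markers was at 0. The class of oligodendrocytes held 116 and 112 saline and 540 and 570 risperidone nuclei, a count set by the rule for classes. A cluster with 7 raised oligodendrocyte markers, Mobp and Mag among its leading genes, stayed unclassed because its Camk2a level of 776 CPM was over the limit of 650. It held 853 and 951 saline and 367 and 241 risperidone nuclei, and with it the numbers were 2032 and 1718. Its ribosomal protein sum was 407 CPM in saline and 523 CPM in risperidone, a log2 ratio of plain CPM of 0.36 beside 1.08 in the classed cluster. With it the ratio of the pools in glia was 0.65, and astrocytes and OPCs alone gave 0.60, both alternatives added after seeing the data. The pools also filled different astrocyte clusters. One held 1077 and 1082 saline but 18 and 54 risperidone nuclei, and the other 16 and 16 saline but 1144 and 948 risperidone nuclei. Within the first, the sum was 432 and 450 CPM in the saline and 1356 and 569 CPM in the risperidone lanes, and within the second 658 and 274 CPM against 801 and 745 CPM, so the values of the pool with few nuclei rest on lanes far apart. The part of these values in the difference between pools was not tested.

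Nuclei of few UMIs were listed in different numbers, so the sums were also taken within bins of UMIs per nucleus. In neurons of 3000 to 5000 UMIs the sum was 354 and 357 CPM in saline and 528 and 535 CPM in risperidone. At 8000 UMIs or more it was 314 and 300 CPM against 412 and 423 CPM. Over these depths the share declined in both pools, and the risperidone lanes were the higher ones. In glia of 3000 to 5000 UMIs the values were 369 and 390 CPM in saline and 703 and 580 CPM in risperidone. In vascular nuclei of 2000 to 3000 UMIs they were 917 and 766 CPM against 2629 and 2735 CPM. At 3000 to 5000 UMIs the vascular risperidone lanes were far apart, at 702 and 1688 CPM, against 460 and 633 CPM in saline. Below 1500 UMIs lay 248 and 0 saline and 1072 and 616 risperidone glia. With nuclei of at least 2000 UMIs alone, the log2 ratio was 0.64 in glia and 0.89 in vascular nuclei.

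**Figure D3:**
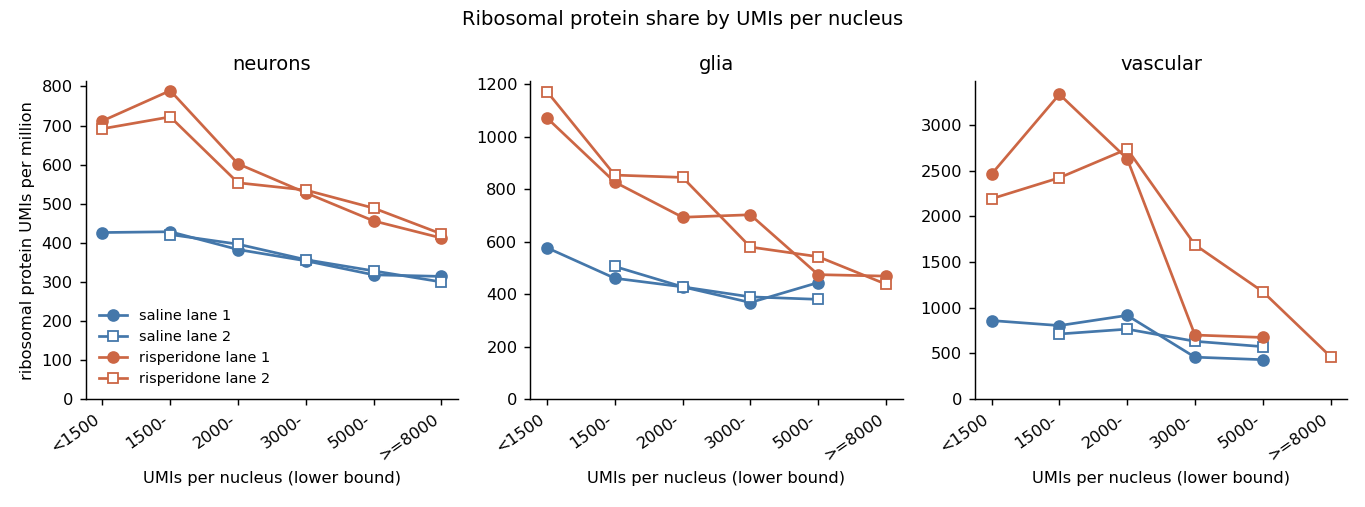
CPM on the 86 ribosomal protein genes (vertical axis from 0) in nuclei binned by their UMIs, for neurons, glia and vascular nuclei in each lane; only bins of at least 20 nuclei are drawn. In neurons of 3000 to 5000 UMIs the saline lanes lie at 354 and 357 CPM and the risperidone lanes at 528 and 535 CPM.

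Single genes were listed as higher or lower in risperidone when their log2 ratio was at least 0.5 in size and the lanes of the pools did not overlap on the scaled values. In neurons, 83 of the 86 genes had at least 100 UMIs. Of those, 34 were listed higher and 0 lower, whereas 14.5% of the 17365 genes tested were listed higher and 11.5% lower. Their median log2 ratio was 0.42, with quartiles of 0.13 and 0.61, beside a median of -0.00 over all genes. The difference was spread over both subunits, with medians of 0.42 for the 50 large-subunit and 0.42 for the 33 small-subunit symbols. In glia, 37 of 49 genes were listed higher and 0 lower, against 13% and 9.7% of 10238 genes. In vascular nuclei, 8 of 11 were listed higher and 0 lower, against 11% and 10.3% of 6104 genes. As above, the UMI minimum favours genes that are high in one pool where counts are scarce, so the glial and vascular counts add nothing to the sums. They also moved with single lanes, as fewer genes then reached the minimum. Without the first or second risperidone lane, 17 of 27 and 17 of 26 glial genes were listed higher, beside 11.6% and 12.2% of all genes. In vascular nuclei the number was 5 of 5 or 4 of 5 without the first or second saline lane, and 3 of 3 or 2 of 2 without the first or second risperidone lane, beside 9.27% to 12.6% of all genes. In neurons 12 of the 83 genes were overlapped on the opposite strand by a gene with more UMIs, and their median was 0.27.

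**Figure D4:**
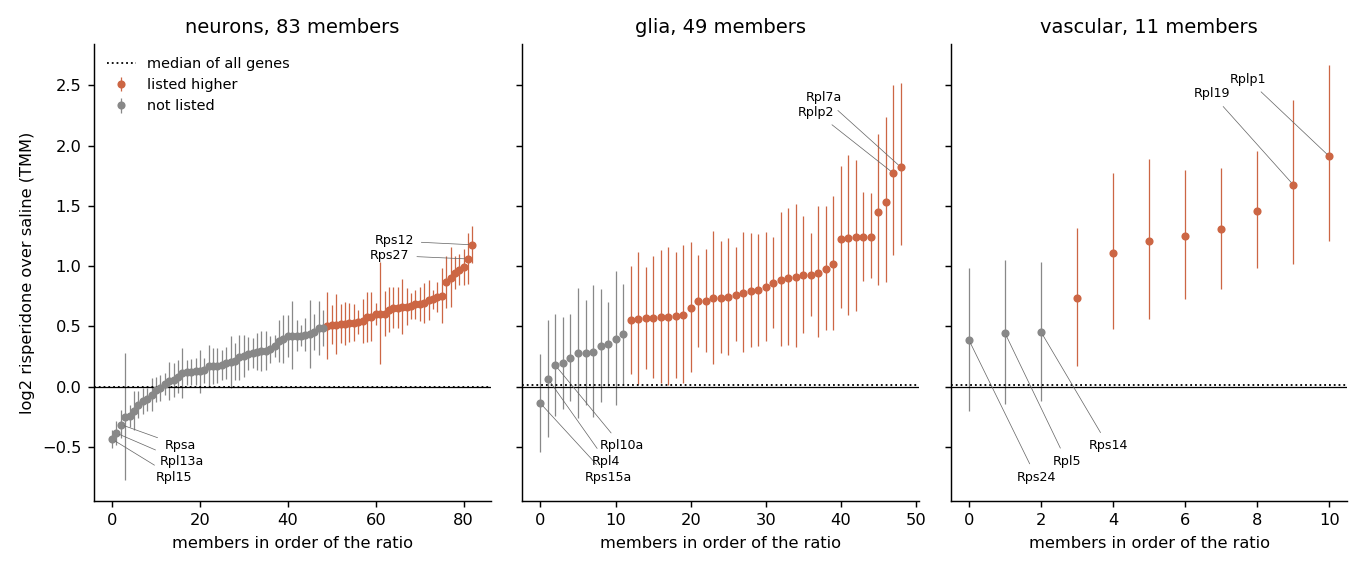
Log2 ratio of risperidone to saline (TMM) for each ribosomal protein gene with at least 100 UMIs in neurons (83 genes), glia (49) and vascular nuclei (11), in order of the ratio, with exact 95% counting intervals and the median of all genes as a dotted line. Genes listed higher number 34, 37 and 8, and the lowest values in neurons are -0.43 for Rpl15 and -0.38 for Rpl13a.

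The highest ratio in neurons was that of Rps12, a small-subunit protein near the beak of the subunit's head, at 2.74 and 2.85 CPM in saline and 7.27 and 6.43 CPM in risperidone. Its log2 ratio was 1.18 (interval 1.03 to 1.33), or 2.26-fold. Rps27, a zinc-finger protein of the small subunit, stood at 1.65 and 1.33 CPM against 3.30 and 3.29 CPM (log2 1.06), though reads of Rps27, Rps27l and Rps27rt may be split among near-identical copies. Lanes of the same pool were close to each other in both genes. Since genes were named only where all pairs of lanes went the same way, the gap between the pools follows from the choice. Rpl23a, which lies at the exit of the peptide tunnel, stood at 3.18 and 2.86 CPM against 6.64 and 6.25 CPM (log2 0.99). Rps13 was at 3.53 and 3.92 CPM against 7.89 and 7.90 CPM (0.97). Rpl24, a mutation of which gives the Belly spot and tail mouse, was at 3.80 and 3.53 CPM against 7.74 and 7.43 CPM (0.95).

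Against this trend, 8 of the 83 genes had both risperidone lanes below both saline lanes in neurons on the scaled values. They were Rpl15, Rpl13a, Rpsa, Rpl11, Rpl34, Rpl3, Rpl4 and Rps15a, and none of them reached the size needed to be listed. In 65 genes both risperidone lanes lay above both saline lanes. The share of all genes with lanes apart at any size is not given here, so these counts have no background beside them. Rpl15 stood at 17.1 and 16.5 CPM in saline and 13.5 and 13.2 CPM in risperidone (log2 -0.43, interval -0.51 to -0.36). It is overlapped on the opposite strand by Nkiras1, which has more UMIs. Rpl13a, which is also a part of an inhibitor of translation in inflammation, stood at 9.67 and 9.59 CPM against 8.47 and 7.51 CPM (log2 -0.38). Rpsa, which also serves as a laminin receptor, stood at 6.74 and 6.62 CPM against 6.12 and 5.49 CPM (-0.31). Rpl11 was at 11.1 and 11.0 CPM against 10.1 and 10.05 CPM (-0.24). For Rpl34 the deposited counts overlapped as plain CPM, at 3.41 and 3.48 CPM against 3.42 and 3.08 CPM, and its lanes were apart only after scaling (-0.20). Plain CPM, which leaves 75 rather than 71 of the 83 genes above 0, also let the lanes of Rpl4 and Rps15a overlap. In PV-INs taken alone, 26 of the genes had at least 100 UMIs, of which 8 were listed higher and 3 lower (Rpsa, Rpl15 and Rpl3), against 8.9% and 9.72% of 8793 genes. Their median log2 ratio was 0.11, with 16 of 26 above 0, below the 0.33 of the sum over all 86. Rpsa was at 10.9 and 10.7 CPM in saline and 7.55 and 4.68 CPM in risperidone (log2 -0.94), and Rpl15 at 14.9 and 11.3 CPM against 10.8 and 8.02 CPM (-0.58).

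**Figure D5:**
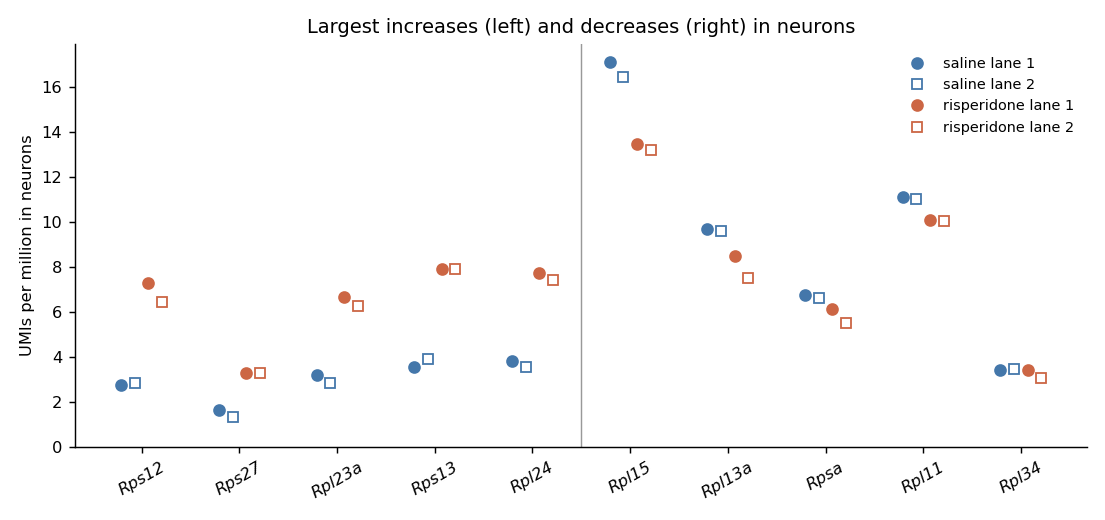
CPM in neurons (vertical axis from 0) in each lane for the 5 ribosomal protein genes with the highest and the 5 with the lowest ratio of risperidone to saline. Rps12 lies at 2.74 and 2.85 CPM in saline and at 7.27 and 6.43 CPM in risperidone, and Rpl15 at 17.1 and 16.5 CPM against 13.5 and 13.2 CPM.

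To show what the start sites of these genes look like, 90 bases around each RefSeq start are printed 5' to 3' on the gene's strand in build GRCm38.p6, 60 before the start and 30 from it. Capitals mark the longest run of C and T that overlaps the 5 bases on either side of the start. Rpl23a is named only. The first 4 are genes higher in risperidone neurons, and the other 5 lower.
Rps12, chr10:23787180-23787269, minus strand: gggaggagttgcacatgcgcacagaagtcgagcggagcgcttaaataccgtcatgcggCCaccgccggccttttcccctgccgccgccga
Rps27, chr3:90213619-90213708, minus strand: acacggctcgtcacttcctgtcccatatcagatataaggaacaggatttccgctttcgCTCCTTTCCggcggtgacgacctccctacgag
Rps13, chr7:116334161-116334250, minus strand: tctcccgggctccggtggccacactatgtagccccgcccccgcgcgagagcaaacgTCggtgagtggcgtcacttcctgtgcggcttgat
Rpl24, chr16:55966215-55966304, plus strand: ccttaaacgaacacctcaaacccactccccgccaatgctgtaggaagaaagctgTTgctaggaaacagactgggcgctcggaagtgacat
Rpl15, chr14:18270957-18271046, minus strand: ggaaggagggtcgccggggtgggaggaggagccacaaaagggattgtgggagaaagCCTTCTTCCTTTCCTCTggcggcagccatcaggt
Rpl13a, chr7:45128716-45128805, minus strand: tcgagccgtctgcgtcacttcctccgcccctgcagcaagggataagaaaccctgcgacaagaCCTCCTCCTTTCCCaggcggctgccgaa
Rpsa, chr9:120127706-120127795, plus strand: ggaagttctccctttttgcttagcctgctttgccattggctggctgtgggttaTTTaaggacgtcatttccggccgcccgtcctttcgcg
Rpl11, chr4:136053364-136053453, minus strand: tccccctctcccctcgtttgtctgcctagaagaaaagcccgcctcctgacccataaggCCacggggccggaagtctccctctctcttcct
Rpl34, chr3:130730308-130730397, minus strand: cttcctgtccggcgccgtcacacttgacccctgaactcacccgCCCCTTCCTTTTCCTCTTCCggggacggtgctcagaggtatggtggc

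The run was 9 bases long in Rps27 and 2 bases in Rps12, Rps13 and Rpl24. Among the lower genes it was 17 bases in Rpl15, 14 in Rpl13a, 20 in Rpl34, 3 in Rpsa and 2 in Rpl11. Rpl34 has another listed start, where the run was 6 bases. Runs further from the RefSeq start are not counted, such as the longer ones printed in small letters downstream in Rps12 and Rpl11. The lengths thus depend on where that start is placed. RefSeq windows of 300 bases matched 66 of the 86 symbols with 78 windows, of which 30.8% had a run of at least 8 bases at the start, against 9.72% of 32851 windows of all genes. Over the genes tested in neurons, the median log2 ratio of risperidone to saline was 0.43 for the 24 with a run of at least 8 and 0.39 for the 39 with a shorter one. Other letters searched on both strands of the 300 bases were CCGGAAG, found in 34.6% of the ribosomal protein windows and 8.86% of all windows, GGGCGG (60.3% and 35.7%), AAGATGG (15.4% and 6.34%), CACGTG (10.3% and 7.15%) and TATAAA (8.97% and 13.6%). The median GC content was 58.2% against 52.7%. These matches describe the windows and are not shown to be sites of any factor.

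Genes of the P stalk and others with known roles are given here for neurons. The stalk base Rplp0 was at 0.926 and 0.942 CPM in saline and 1.58 and 1.19 CPM in risperidone (log2 0.44), Rplp1 had a log2 ratio of 0.28 and Rplp2 of 0.66. Rps27a, which is made as a fusion with ubiquitin, had 0.42, and Rps6, the substrate of the S6 kinases, had 0.18. The pair that binds Mdm2 was at the low end, Rpl5 at 9.34 and 9.21 CPM against 9.86 and 10.3 CPM (log2 0.02, lanes overlapping on the scaled values) beside Rpl11 above. Rpl6 was at 10.6 and 11.0 CPM against 19.99 and 18.5 CPM (0.72). The 4 X-linked genes gave 0.51 for Rpl10, 0.52 for Rpl39, 0.42 for Rpl36a and 0.25 for Rps4x.

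Paralogs had ratios in the same range where they were expressed. Rpl22l1 was at 3.05 and 2.76 CPM against 4.87 and 4.97 CPM (log2 0.67), while Rpl22, which it can replace in the ribosome, had 0.12. Rpl7l1 had 0.75, Rps27l 0.60 and Rpl36al 0.51. Rpl3l, known from heart and skeletal muscle, gave 127 UMIs in neurons and a ratio of -0.25 whose interval of -0.77 to 0.28 includes 0. Rps19bp1, a binding partner of Rps19 rather than a ribosomal protein, had 0.20 with overlapping lanes. Rps27rt had 27 UMIs in neurons, and Rpl10l and Rpl39l had 1 each, too few for a ratio. Where a paralog and its partner share sequence, as with Rpl36al and Rpl36a, reads could be assigned to either.

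In glia, the highest ratio was that of Rpl7a, at 3.26 and 2.53 CPM in saline and 13.1 and 9.11 CPM in risperidone (log2 1.82, interval 1.18 to 2.51). Rplp2 followed at 1.75 and 3.38 CPM against 9.82 and 9.497 CPM (1.77), then Rps27a (1.53) and Rpl37 (1.45). Each of these genes rested on 106 to 124 UMIs. Rps15a (log2 -0.14) and Rpl4 (0.07) had overlapping lanes. In vascular nuclei Rplp1 stood at 7.93 and 10.9 CPM against 45.4 and 33.7 CPM (log2 1.91, interval 1.21 to 2.67). Rpl19 was at 14.7 and 9.34 CPM against 30.9 and 46.5 CPM (1.67), Rpl13 had 1.30 and Rpl6 1.25. The lanes of a pool differed by more than in neurons. These increases were named only where all pairs of lanes went the same way, so the gap between the pools follows from the choice. Of the 11 genes, Rps24 (0.39), Rpl5 (0.45) and Rps14 (0.45) were below the size needed to be listed.

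Intron length was compared with the ratios of risperidone to saline. Split at a total intron length of 1.18 kb, the 43 genes with shorter introns gave a log2 ratio of 0.30 in neurons and the 43 with longer introns 0.31. In glia the values were 0.81 and 0.69, and in vascular nuclei 1.26 and 1.17. As a description across genes, which are not independent, Spearman's rho between intron length and the ratio was -0.23 over 83 genes in neurons, -0.27 over 49 in glia and -0.48 over 11 in vascular nuclei, where genes share libraries and depth. The level in neurons followed exon length more (rho 0.42 over 86 genes) than intron length (0.12).

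Other genes of translation gave smaller summed ratios. Over all genes tested, 14.5% were listed higher and 11.5% lower in neurons, 13% and 9.7% in glia and 11% and 10.3% in vascular nuclei, and the counts of the lists below are to be read against these shares. In neurons, 1 of 26 genes in the list of elongation and initiation factors was listed higher, Eef1b2 (log2 0.68), and the summed list gave 0.04. That list also holds Tpt1, Pabpc1, Naca, Btf3 and Rack1, which are not such factors. In glia 4 of 23 tested were listed higher and the sum gave 0.12, with Eef1a1, which delivers tRNA to the ribosome, at 0.87 and Tpt1 at 0.83. In vascular nuclei 7 of 17 were listed higher and the sum gave 0.44, with Eef1a1 at 1.27, Tpt1 at 1.22 and the translocase Eef2 at 0.98. These mRNAs, like those of the ribosomal proteins, are known to begin with a pyrimidine run. The mTOR and Larp1 list gave sums of -0.10, 0.01 and -0.03 in the 3 groups, with 0 listed higher and 1 lower of 10 in neurons and 0 listed in glia and vascular nuclei.

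Ribosome biogenesis genes, which act in the nucleolus, gave sums of -0.17 in neurons, -0.11 in glia and 0.11 in vascular nuclei. In neurons Nhp2, of the pseudouridylation complex, was listed higher (0.69), whereas Nop56, of the snoRNA methylation complex (-0.54), and Ubtf, which drives ribosomal RNA transcription (-0.51), were listed lower, out of 20, both counts being below the shares over all genes. Glia had Rrs1 (1.32) and Fbl (0.81) listed higher of 16. In vascular nuclei 0 of the 5 tested were listed higher and 2 lower, with a median of -0.12 beside the positive sum. The snoRNA hosts Snhg8 (0.92) and Snhg12 (0.72) were listed higher of 9 tested in neurons, and Snhg11 (-0.61) and Snhg14 (-0.75) lower of 3 in glia, the list's sums being 0.09, -0.62 and -0.28. In saline this list held 2381 CPM in neurons and 1376 CPM in glia. The part of neuronal RNA in its glial and vascular ratios was not tested.

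In neurons, genes of the mitochondrial ribosome and the respiratory chain gave sums close to that of the ribosomal proteins. The sums of the 78 mitochondrial ribosomal protein genes gave log2 ratios of 0.24, 0.26 and 0.34 in neurons, glia and vascular nuclei. Of those tested, 20 of 78 were listed higher in neurons, 7 of 36 in glia with 1 lower, and 0 of 6 in vascular nuclei. Nuclear-encoded respiratory chain genes gave 0.29, 0.35 and 0.53, with 24 of 73, 20 of 47 and 4 of 10 listed higher and 0, 1 and 0 lower. Beside these, the cytosolic ribosomal proteins stood at 0.30, 0.75 and 1.21. The 13 transcripts of the mitochondrial genome gave -1.34, -0.20 and -0.46, and all 13 were listed lower in neurons.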

How the data were processed

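Per the labels and the study's methods, the authors sorted nuclei, made libraries with GEM-X chemistry, aligned reads with Cell Ranger 8.0.1 to mm10 with intronic reads assigned to genes, and deposited the filtered counts of UMIs per gene and nucleus for each lane, without normalization. Cell Ranger ran with its default settings, which count reads of the sense strand.

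Nuclei were kept from 500 genes upward where mitochondrial UMIs made up no more than 5%. Doublets were simulated (2 per nucleus) and nuclei most like them removed, in numbers that grew with the nuclei listed. Clustering used 2000 variable genes without the ribosomal protein genes, 30 principal components, 20 neighbours and Louvain resolution 0.5. Clusters took a class other than glutamatergic when its markers averaged a log2 ratio of at least 2, by 1 more than the next class, with 3 raised. Interneuron and striatal-type clusters also needed Gad2 of at least 60 CPM, and glial and vascular ones Camk2a under 650 CPM. Glutamatergic clusters needed Slc17a7 of at least 70 CPM, Gad2 under 30 CPM and no other class at 1.5. These thresholds were set after marker levels had been seen. Between 15.8% and 18.2% of nuclei per lane were left unclassed.

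Counts were summed per lane and class. Ratios of the pools used TMM factors of edgeR 4.0.16, and ratios between classes used plain CPM. Genes with at least 100 UMIs over the 4 lanes were compared singly and listed at a log2 ratio of 0.5 with lanes apart. With 1 pool per condition, no p-value was computed. Intervals are Poisson for a level and conditional binomial for a ratio, at 95%. Exon and intron lengths came from all transcripts of GENCODE vM21, where the 86 genes were found, including retained introns. The ratio procedure was tested on simulated data. Software was Python 3.11.15, numpy 2.4.6, scipy 1.17.1, scikit-learn 1.9.0, igraph 0.11.9 and R 4.3.3, with DESeq2 1.42.0 for alternative size factors.

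Members and lists were chosen with earlier results of these data known. Named genes were the 5 largest increases and decreases between pools with the same direction in all lane pairs, the 5 largest and smallest ratios to neurons, the 5 highest levels per kb in each group, genes with known extra roles, and paralogs. Of the genes this rule names, 1 is not reported here. Alternatives covered filters on nuclei, doublets, resolution, clustering genes, sex, scaling, weighting, UMI minimum and each lane left out.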

Additional observations from a re-analysis of the deposited data

Results flagged for a closer look

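Of the 49 ribosomal protein genes compared in both neurons and glia, 4 had both risperidone lanes below both saline lanes in neurons and above them in glia. The share of all genes with this pattern is not given here, and the UMI minimum in glia favours genes that are high in either pool. The difference between groups was not tested. Rpl13a had log2 ratios of risperidone to saline of -0.38 in neurons, 0.35 in glia and 0.74 in vascular nuclei. Rpl15 had -0.43 in neurons and 0.44 in glia, where it stood at 11.8 and 7.60 CPM in saline and at 14.6 and 13.2 CPM in risperidone. Rpsa had -0.31 in neurons and 0.28 in glia, and the glial interval of -0.15 to 0.72 includes 0. Rpl3 had -0.15 in neurons (interval -0.26 to -0.04) and 0.82 in glia (0.38 to 1.28), where it stood at 7.77 and 6.97 CPM in saline and at 16.4 and 12.02 CPM in risperidone. The Rpl13a and Rpl15 intervals in glia start at 0.01 and 0.03. Each direction was taken relative to the median of all genes in its group, and the ratio of all 86 genes together was higher in glia than in neurons, at 0.75 against 0.30.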

How the results depend on the processing

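Across the alternatives run no sum changed direction, 130 values of sums and counts stayed within the spread of the lanes or 1.5 times the reported count, and 53 moved. For ratios between pools, that spread was the standard deviation of lanes within pools. For ratios to neurons it was taken over all 4 lanes, at 0.26 in glia and 0.52 in vascular nuclei. It there includes the gap between the pools, which makes the limit looser. A count could only stay or move, and counts of genes listed lower that remained at 0 are among those that stayed. Of the values for single genes followed in the same way, 92 stayed, 28 moved and none changed sign. These genes had been chosen for the same direction in all lane pairs and were followed only over scaling and lanes left out. Their signs were thus largely fixed beforehand. The log2 ratio of risperidone to saline ranged from 0.25 to 0.58 in neurons, 0.60 to 0.93 in glia and 0.89 to 1.44 in vascular nuclei. These ranges take in both TMM-scaled and plain CPM values, and the 0.58 is plain CPM in neurons of 3000 to 5000 UMIs. Values that moved are given in the order neurons, glia and vascular where more than one did. Plain CPM gave 0.41, 0.85 and 1.31. Equal weight per class gave 0.40, 0.91 and 1.17, and equal weight per nucleus 0.93 and 1.44 in glia and vascular nuclei. A total without mitochondrial transcripts and the 50 genes with most UMIs, used with no TMM factors, gave 0.41, 0.83 and 1.28. Nuclei called female alone gave 0.25, 0.61 and 1.31, and male alone 0.37 in neurons and 1.30 in vascular nuclei. At least 2000 UMIs gave 0.64 and 0.89, and doublet-like nuclei kept 0.66 and 1.00, in glia and vascular nuclei. Resolution 1.0 gave 0.65 in glia. Alternatives added after seeing the data gave 0.60 for astrocytes and OPCs alone and 0.65 with an oligodendrocyte-marked cluster added to glia. Nuclei of 3000 to 5000 UMIs, also added then, gave 0.58, 0.67 and 1.03 as plain CPM, beside the plain 0.41, 0.85 and 1.31 of all depths. Against neurons, glia gave 1.22 with classes weighted equally and 0.18 at 3000 to 5000 UMIs, and vascular nuclei 0.82 at that depth. Equal weighting counts microglia, with 8 and 6 saline nuclei and the highest sums, as much as each other glial class.

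Genes listed higher numbered 2 of 6 tested in neurons, 11 of 18 in glia and 52 of 57 in vascular nuclei at a mean of at least 10 CPM, where 3.47%, 10.2% and 15.6% of all genes were listed higher. At least 30 UMIs gave 65 of 81 and 67 of 74 in glia and vascular nuclei, beside 18.6% and 17.5% of all genes. Any UMI gave 66 of 84 and 71 of 84, beside 19.1% and 18.8%. At least 2000 UMIs per nucleus gave 9 and 1, female nuclei 5 and 1, and male nuclei 0 and 0, where the genes that reached the minimum numbered 18 and 1, 9 and 1, and 0 and 0. Of all genes, 8.39% and 5.52%, 12.5% and 9.25%, and 8.98% and 10.6% were listed higher in these settings. Doublet-like nuclei kept gave 16 of 20 in vascular nuclei, beside 7.67% of all genes. In neurons female nuclei gave 1 of 82 tested genes listed lower, beside 12.02% of all genes. Leaving out each lane gave 0.28 to 0.32 in neurons, 0.73 to 0.80 in glia and 1.17 to 1.25 in vascular nuclei, 0.47 to 0.64 for glia and 1.27 to 1.60 for vascular nuclei against neurons, and 26 to 36, 17 to 33 and 2 to 5 genes listed higher, of 82 to 83, 26 to 42 and 2 to 5 tested, beside 13.1% to 14.7%, 11.6% to 13.8% and 9.27% to 12.6% of all genes. No paired analysis was possible because each condition is 1 pool and the numbers are those of lanes.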
